A study of Mus musculus with 6 samples.

Results

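The zona pellucida and gamete-binding genes of the mouse oocyte are the 7 genes Zp1, Zp2, Zp3, Izumo1r, Cd9, Cd81 and Astl, and they were taken by exact gene symbol from the 25631 genes listed in the deposited expression table. All 7 were found, and all 7 passed the filter on low values, which kept 10340 genes with at least 1 FPKM in at least 3 of the 6 libraries. FPKM is a count of fragments scaled for the length of the transcript and for the size of the library. The oocytes were taken by puncture of the large antral follicles of ICR mice primed with the gonadotropin eCG to stimulate follicle growth. These mice were aged 14 months when treatment began. In the aminophylline group (n = 3 libraries) the drinking water held 4.0 mM aminophylline, a nonspecific phosphodiesterase inhibitor, during 1 week, followed by 3 weeks without it. The control group (n = 3 libraries), labelled as aged and untreated, came from mice of the same strain and age that drank water only. No transgene or deletion is named for either group. The number of mice and oocytes behind a library is not given in the sources used here, so a p-value measures only the spread between these libraries, which may be technical in part.

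The zona pellucida is the extracellular coat of the oocyte, built in the mouse from the secreted glycoproteins ZP1, ZP2 and ZP3. ZP2 and ZP3 form the filaments, ZP1 cross-links them, and sperm bind through ZP2. Under the coat, the oocyte membrane carries JUNO, the product of Izumo1r, which is the receptor for IZUMO1 of sperm and is held by a glycosylphosphatidylinositol (GPI) anchor. CD9 is a tetraspanin of the oocyte membrane that is needed for fusion with sperm, and CD81 is a related tetraspanin. Astl encodes ovastacin, a metalloprotease that is stored in cortical granules, and that cleaves ZP2 after fertilization so that further sperm no longer bind. The transcripts of these genes accumulate while the oocyte grows. The comparison asks whether their levels in oocytes of aged mice differed after the course of aminophylline.

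On GRCm38, Zp1 lies on chr19:10914296-10920601 on the minus strand, Zp2 on chr7:120126762-120145291 on the minus strand, and Zp3 on chr5:135980105-135988624 on the plus strand. Izumo1r lies on chr9:14885814-14903951 on the minus strand and Astl on chr2:127338639-127357655 on the plus strand. Cd9 lies on chr6:125460266-125494760 on the minus strand and Cd81 on chr7:143052750-143067930 on the plus strand. The table gives 1 value per gene, so isoforms were not told apart. For each gene 1 transcript was compared with those of other genes. For Izumo1r it has 1291 bases, against 3280 behind the FPKM, so not all of that length was checked. No stretch of 50 bases of the Zp1, Zp2, Zp3, Izumo1r, Cd81 and Astl transcripts compared occurs in a transcript of another gene in the GENCODE M21 annotation. In the Cd9 transcript, 15.5% of such stretches do, 169 of them in Gm26728, a gene on the opposite strand, and 14 in a Cd9 pseudogene. Cd9 also overlaps Gm28809, and Cd81 overlaps R74862, on the opposite strand. The kit is not said to mark strand, so reads of these overlapping partners cannot be told apart from those of Cd9 and Cd81.

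Promoter windows of 300 bases, from 250 before to 50 after an annotated start, were at hand from RefSeq (GRCm38.p6) for 5 of the 7 genes, with 2 starts for Astl. They are shown because zona genes are known targets of FIGLA, an oocyte factor of the basic helix-loop-helix family that binds the E-box motif CANNTG. Capitals mark CANNTG, which reads as CANNTG on both strands, and TATAA, searched on the gene's strand only. No 2 of the marked motifs overlap. The windows follow for Zp3 (chr5:135979855-135980154, plus strand), Izumo1r (chr9:14903718-14904017, minus strand), the second Astl start (chr2:127341386-127341685, plus strand), Cd9 (chr6:125494711-125495010, minus strand) and Cd81 (chr7:143052500-143052799, plus strand), each read on the gene's strand from 5′ to 3′.
Zp3: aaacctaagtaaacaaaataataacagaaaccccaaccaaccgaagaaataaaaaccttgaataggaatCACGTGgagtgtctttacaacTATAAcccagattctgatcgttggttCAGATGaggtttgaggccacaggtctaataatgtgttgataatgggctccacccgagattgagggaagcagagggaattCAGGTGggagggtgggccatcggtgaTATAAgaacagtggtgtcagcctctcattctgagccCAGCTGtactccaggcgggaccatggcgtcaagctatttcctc
Izumo1r: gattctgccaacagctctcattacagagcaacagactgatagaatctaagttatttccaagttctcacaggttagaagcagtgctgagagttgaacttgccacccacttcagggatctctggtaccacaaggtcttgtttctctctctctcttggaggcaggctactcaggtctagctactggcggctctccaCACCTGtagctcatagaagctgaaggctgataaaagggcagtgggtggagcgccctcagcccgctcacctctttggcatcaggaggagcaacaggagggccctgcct
Astl: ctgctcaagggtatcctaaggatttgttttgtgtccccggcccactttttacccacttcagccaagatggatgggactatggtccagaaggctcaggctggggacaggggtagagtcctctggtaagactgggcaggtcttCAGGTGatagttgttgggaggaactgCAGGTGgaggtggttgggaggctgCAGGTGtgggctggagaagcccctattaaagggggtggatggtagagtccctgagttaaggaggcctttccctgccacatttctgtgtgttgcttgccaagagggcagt
Cd9: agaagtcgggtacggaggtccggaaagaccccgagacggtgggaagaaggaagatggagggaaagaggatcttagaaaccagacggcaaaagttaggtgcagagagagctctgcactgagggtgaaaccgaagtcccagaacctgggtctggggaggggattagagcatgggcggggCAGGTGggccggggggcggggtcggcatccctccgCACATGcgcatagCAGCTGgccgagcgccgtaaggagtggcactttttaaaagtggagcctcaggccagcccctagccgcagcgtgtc
Cd81: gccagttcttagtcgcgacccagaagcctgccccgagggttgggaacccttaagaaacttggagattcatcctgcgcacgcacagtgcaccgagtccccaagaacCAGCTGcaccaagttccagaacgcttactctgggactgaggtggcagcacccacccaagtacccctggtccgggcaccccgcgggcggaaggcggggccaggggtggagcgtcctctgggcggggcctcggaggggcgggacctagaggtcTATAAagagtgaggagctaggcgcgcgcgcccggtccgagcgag

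The Zp3 window holds 4 matches to CANNTG, which begin 181, 134 and 55 bases before the start and 7 bases after it, and TATAA 160 and 29 bases before the start. The Astl window at the second start holds 3 matches, all of them CAGGTG, at 109, 83 and 59 bases before the start, while the window at the first start holds 0. Cd9 has 3 matches, and Izumo1r and Cd81 have 1 each. The Izumo1r window was set on an annotated start inside the gene span given above, so its match falls within that span. Over all promoter windows of this length, 72.3% hold at least 1 CANNTG, 17.6% hold 3 or more, and 17.5% hold TATAA. The tetraspanin windows are rich in CG dinucleotides, with 18 for Cd9 and 23 for Cd81, against 7 for Zp3, 3 for Izumo1r, 1 for the second Astl start and a median of 7 over all windows. A match is only a run of letters and does not show that a factor binds there.

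**Figure D1:**
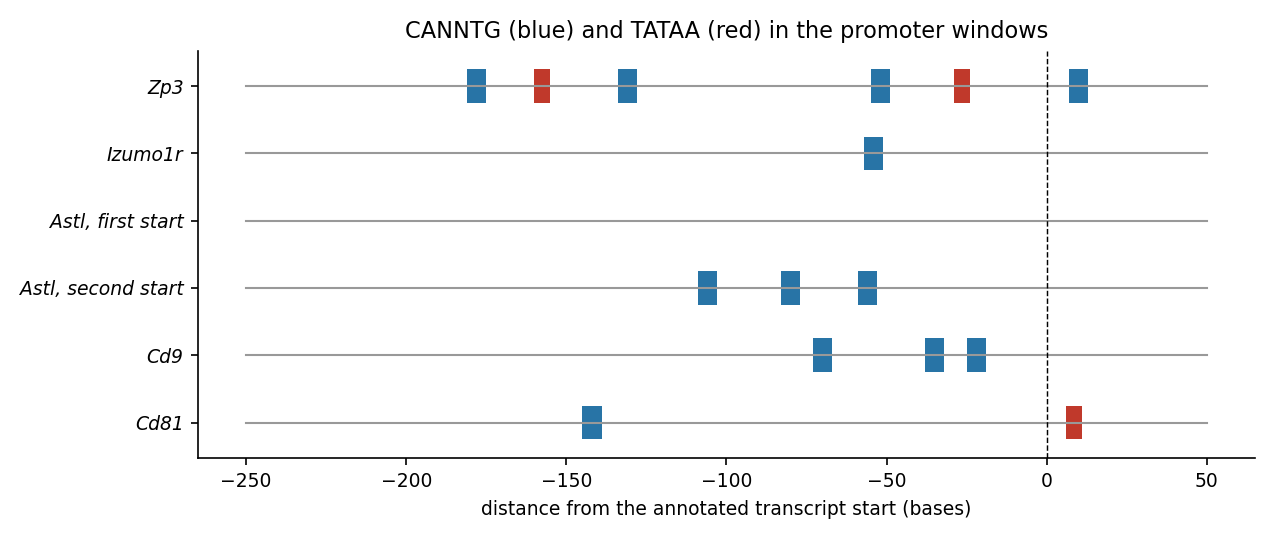
Matches to CANNTG (blue) and TATAA (red) in the promoter windows of 5 genes, drawn against the distance in bases from the annotated transcript start (dashed line). Zp3 holds 4 matches to CANNTG, and the second Astl start holds 3, against 0 at the first Astl start.

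The libraries held 14112341 to 33641283 reads, and the control library with the label number 2 was the shallowest. All 11 oocyte markers were tested, and their summed level was 16079 to 21050 FPKM in the control libraries and 17398 to 19878 FPKM with aminophylline, so the markers of the labelled cell type were present in every library. Control library 1 stood apart in macrophage transcripts. The summed level of the 13 macrophage markers in the table was 265 FPKM there and 82.0 and 103 FPKM in the other control libraries, against 82.5 to 101 FPKM with aminophylline, and 11 of the 13 were highest in control library 1. C1qb made up most of the sum in the other 5, at 72.3 to 99.8 FPKM over all libraries. Lyz2, a lysozyme of macrophages, was at 66.4 FPKM in control library 1 and at most 0.573 FPKM in the others. Granulosa markers summed to 18.1 to 26.0 FPKM in control and 20.7 to 26.3 FPKM with aminophylline, with 10 of 14 under 1 FPKM in every library, and the 8 stroma and theca markers summed to 0.812 to 1.77 and 0.931 to 1.90 FPKM. The 6 endothelial markers summed to 5.70 to 9.08 and 6.21 to 8.30 FPKM, and the 4 erythrocyte markers to at most 0.585 FPKM. Of the 7 genes described here, 4 were lowest in control library 1, as were 27.2% of all genes tested; the part of the macrophage transcripts in this was not tested. In bulk samples, fewer cells of a type and less RNA per cell cannot be told apart.

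By FPKM, which corrects for transcript length, Zp3 was by far the most abundant of the 7 transcripts and Cd81 the least. Zp3 ranked from 10 to 15 among all genes in each library, Zp2 from 47 to 150 and Zp1 from 75 to 163. Cd9 ranked from 280 to 493, Astl from 312 to 964, Izumo1r from 919 to 1226 and Cd81 from 8623 to 11644. The level of Zp3 was 3.49 to 7.38 times that of Zp2 within a library. Zp2 and Zp1 did not keep an order, with Zp2 the higher in 4 of 6 libraries. Zp1 was 1.88 to 3.01 times Cd9, and Izumo1r was 58.3 to 164 times Cd81, both in 6 of 6 libraries. The places of Cd9, Astl and Izumo1r depended on the transcript length used. With the lengths behind the deposited FPKM (1197 bases for Cd9, 2497 for Astl and 3280 for Izumo1r), Cd9 was above Astl in 6 of 6 libraries and Astl above Izumo1r in 6 of 6. With GENCODE exon lengths of 2044, 2560 and 2320 bases, an alternative chosen after seeing the data, Astl was above Cd9 in 3 of 6 libraries and Cd9 was above Izumo1r in 6 of 6.

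No difference between the aminophylline and control groups passed the test for any of the 7 genes. Zp2 was the one gene of the 7 whose groups did not overlap, with a mean of 680 FPKM with aminophylline against 858 FPKM in control. Zp1, Cd81 and Astl had lower means with aminophylline, and Zp3, Izumo1r and Cd9 higher ones, all with overlapping groups. By limma's moderated test on log2(FPKM + 1), 0 of the 7 reached an unadjusted p under 0.05, which 7.25% of all genes tested did (750 of 10340). At a Benjamini-Hochberg adjusted p under 0.05, 0 of the 7 were called, and so were 0% of all genes (0 of 10340), by this fit and by limma's voom on the recovered reads, which gave 760 genes at an unadjusted p under 0.05. Of the 750 genes, 60.8% were higher with aminophylline. Other scalings called other sets of genes, of which 49.1% of 574 were higher after rescaling to a common sum, 39.7% of 875 after quantile normalization and 35.9% of 783 after median centring. With the replicate number as a block, 0.455% of all genes passed the adjusted p (47 of 10340) and 14.2% the unadjusted p, in both cases with 0 of the 7 genes. The median log2 difference was -0.14 over the 7 genes and 0.10 over all genes tested. This median of the 7 did not keep its sign: it was -0.39 without control library 1, 0.0021 without control library 2, 0.02 without control library 3 and 0.25 with library weights. Without control library 1, 3 of the 7 genes reached an unadjusted p under 0.05 by limma, as did 3.57% of all genes. Without control library 2 and with library weights it was 1 of the 7 in each, beside 15.6% and 19.4% of all genes.

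**Figure D2:**
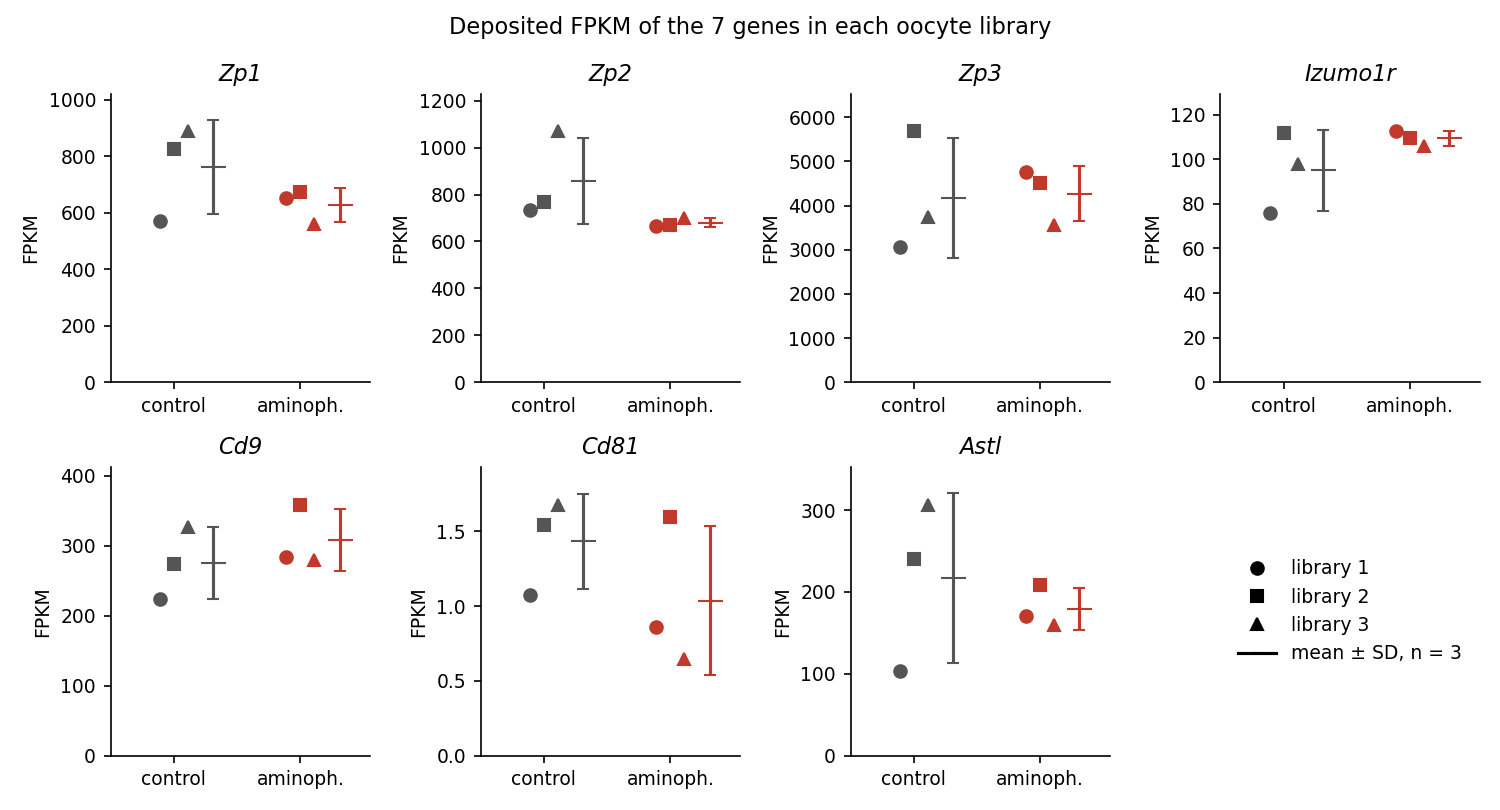
FPKM of each gene in the 3 control (grey) and 3 aminophylline (red) libraries, with the marker shape giving the library number and the bar the mean ± SD (n = 3). The axes start at 0 and differ between panels. Zp2 is the one gene whose groups do not overlap, and Zp2 and Izumo1r sit close together with aminophylline, at 667 to 702 and 106 to 113 FPKM.

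Zp3, which forms the zona filaments together with ZP2, was at 3068, 5684 and 3739 FPKM in control libraries 1, 2 and 3. With aminophylline it was at 4751, 4507 and 3557 FPKM. The highest and the lowest of the 6 values were both in control, and the aminophylline libraries lay between them. The means were 4164 ± 1359 and 4271 ± 631 FPKM (SD, n = 3 each). The log2 difference, aminophylline minus control, was 0.07 with a standard error of 0.228 and a 95% interval from -0.43 to 0.58 (limma adjusted p = 0.942). Its sign turned to -0.12 without control library 1, to -0.0073 with median centring and to -0.0076 without aminophylline library 1, and it was 0.32 without control library 2, 0.20 without aminophylline library 3 and 0.25 with library weights.

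Zp2, whose protein binds sperm, was at 734, 771 and 1071 FPKM in control. The aminophylline libraries held 667, 671 and 702 FPKM, all below the lowest control library. The 3 aminophylline values lay within 1.05-fold of each other, whereas the control values spanned 1.46-fold, with library 3 well above the others. Aminophylline minus control came to a log2 difference of -0.32 ± 0.172 (standard error), with a 95% interval from -0.70 to 0.06 (limma unadjusted p = 0.0943, adjusted p = 0.715). Among all genes tested, 4.96% had aminophylline libraries all below the control libraries, and 12.5% did not overlap in either direction. Without control library 1 or control library 2 the unadjusted limma p of Zp2 was 0.0459 and 0.0474, with differences of -0.42 and -0.38, and the adjusted p was 0.984 and 0.315. Without control library 3, the highest, the difference was -0.15 (limma unadjusted p = 0.349).

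Zp1, the cross-linker, was at 572, 825 and 889 FPKM in control and at 653, 673 and 560 FPKM with aminophylline. Control libraries 2 and 3 were above every aminophylline library, and control library 1 lay among them. Its log2 difference was -0.26 ± 0.188 (standard error), with a 95% interval from -0.67 to 0.16 (limma adjusted p = 0.742). Without control library 1 it was -0.45 with an unadjusted limma p of 0.0205 and an adjusted p of 0.984. Without control library 3 it was -0.13 (limma unadjusted p = 0.499), without aminophylline library 3 it was -0.17, and with library weights it was -0.07.

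Izumo1r, the gene of JUNO, was at 75.8, 112 and 97.8 FPKM in control. It was at 113, 110 and 106 FPKM with aminophylline. Control library 1 was the lowest, and control library 2 fell within the aminophylline range, so the groups overlapped. Its log2 difference was 0.22 ± 0.174 (standard error), with a 95% interval from -0.17 to 0.60 (limma adjusted p = 0.760). Without control library 1 the difference was 0.06, without control library 2 it was 0.34, and with median centring it was 0.135.

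Cd9 was at 224, 274 and 327 FPKM in control and at 284, 359 and 280 FPKM with aminophylline. The highest control library was above 2 of the 3 aminophylline libraries. For Cd9 the log2 difference was 0.17 ± 0.181 (standard error), with a 95% interval from -0.23 to 0.57 (limma adjusted p = 0.805). When limma estimated a weight for each library, it was 0.37 with an unadjusted p of 0.0488 and an adjusted p of 0.254. Without control library 1 it was 0.03, without aminophylline library 2 it was 0.05, without control library 3 it was 0.30, and with median centring it was 0.09.

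Cd81 was near the filter, at 1.08, 1.54 and 1.68 FPKM in control and at 0.863, 1.6 and 0.646 FPKM with aminophylline. These values stand for 55, 33 and 81 reads and for 37, 60 and 30 reads, all above the floor of 3 reads. Aminophylline library 2 lay within the control range and the other two lay below it. For Cd81 the log2 difference was -0.28 ± 0.221 (standard error), with a 95% interval from -0.76 to 0.21 (limma adjusted p = 0.760), on a scale that understates changes of so low a gene. It was -0.50 with a pseudocount of 0.1 and -0.55 by voom on the recovered reads, neither at an unadjusted p under 0.05 (0.229 and 0.225 by limma). Without aminophylline library 2 it was -0.46, without aminophylline library 3 it was -0.14, and with library weights it was -0.02.

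Astl, the ovastacin gene, varied most among the control libraries, at 103, 240 and 307 FPKM. With aminophylline it was at 171, 209 and 159 FPKM, between the lowest and the middle control library. The span was 2.96-fold in control and 1.31-fold with aminophylline. The log2 difference was -0.14 ± 0.324 (standard error), with a 95% interval from -0.85 to 0.57 (limma adjusted p = 0.919). Its size rested on single control libraries. It was -0.60 without control library 1 (limma unadjusted p = 0.0112, adjusted p = 0.984), 0.0021 without control library 2 and 0.18 without control library 3. It was -0.25 without aminophylline library 2 and -0.06 without aminophylline library 3, and library weights gave 0.28 and median centring -0.22.

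**Figure D3:**
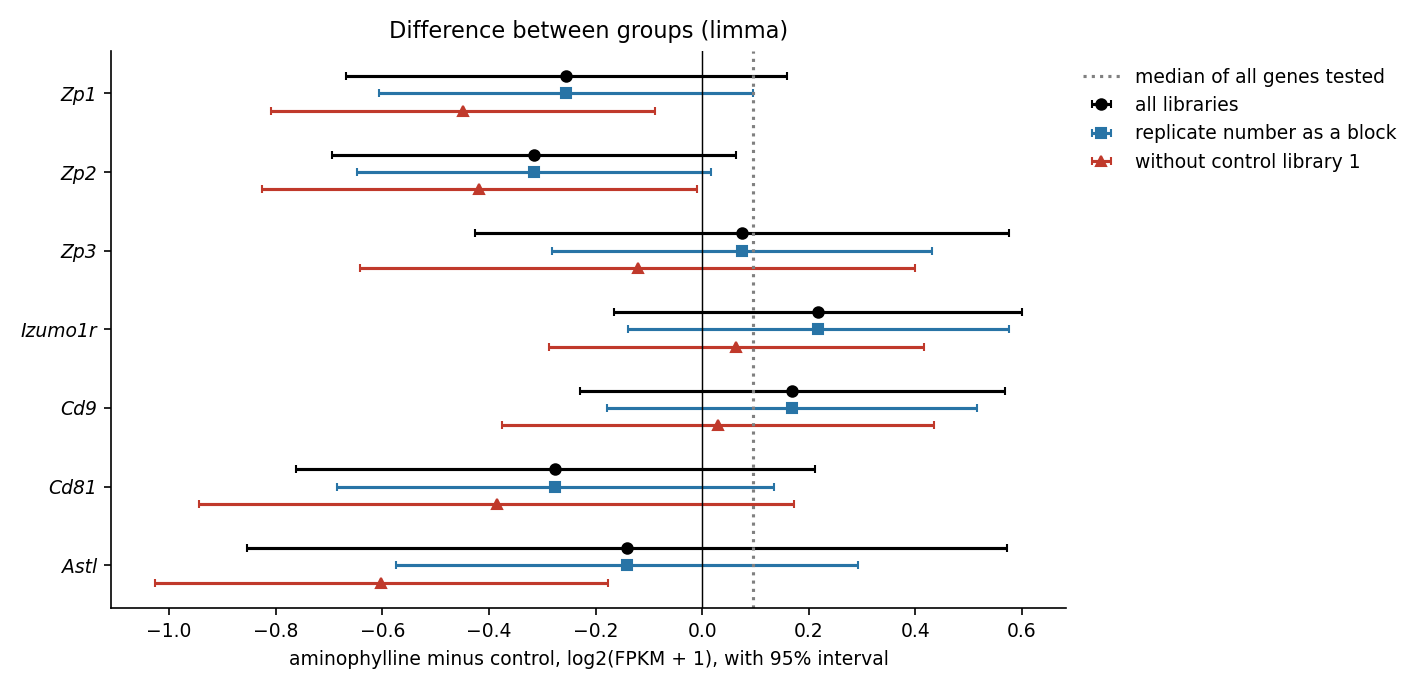
Log2 difference between groups with its 95% interval from limma for the 7 genes, with all libraries (black), with the replicate number as a block (blue) and without control library 1 (red). The dotted line is the median of all genes tested (0.10). With all libraries each interval includes 0, and without control library 1 those of Zp1, Zp2 and Astl lie below 0.

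The spread among libraries was larger in control than with aminophylline for 6 of the 7 genes, and Cd81 was the exception. On the log2 scale the median SD of the 7 genes was 0.296 in control and 0.20 with aminophylline. The same held for 74.7% of all genes tested, whose median SDs were 0.30 and 0.193.

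Ratios between the transcripts within a library do not depend on the scaling between libraries. Zp3 made up 65.6% to 78.3% of the summed FPKM of the 3 zona genes, Zp1 10.8% to 15.6% and Zp2 10.6% to 18.8%. The ratio of Zp2 to Zp3 was 0.239, 0.136 and 0.286 in control and 0.14, 0.149 and 0.197 with aminophylline, where control library 2 was the lowest of all. The ratio of Zp1 to Zp3 was 0.186, 0.145 and 0.238 in control and 0.138, 0.149 and 0.158 with aminophylline. On the log2 scale these ratios differed by -0.39 (exact two-sided permutation p = 0.4) and -0.33 (exact permutation p = 0.3), aminophylline minus control. Both sizes moved with control libraries 2 and 3, to -0.71 and -0.51 without the former and to -0.17 and -0.15 without the latter.

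Cd9 exceeded Cd81 by 208, 178 and 195 times in control and by 329, 225 and 433 times with aminophylline, and these groups did not overlap. The log2 difference of this ratio was 0.72 (exact two-sided permutation p = 0.1, the smallest that 3 against 3 libraries allow, and 0.7 after adjustment over the 7 ratios). The number of Cd81 reads, 30 to 81 per library, limits its precision. The ratios Zp1 to Zp2, Izumo1r to Zp3, Astl to Zp2 and Cd9 to Izumo1r overlapped between groups, with log2 differences of 0.06, 0.15, 0.18 and -0.05 and exact permutation p-values of 0.9, 0.6, 0.9 and 0.9. After adjustment, these ratios and those of Zp1 and Zp2 to Zp3 were at 0.9. The 3 zona genes together held 1.05% ± 0.224 of the summed FPKM in control and 0.988% ± 0.0851 with aminophylline (SD, n = 3 each; exact permutation p = 0.8). All 7 genes held 1.16% ± 0.249 and 1.09% ± 0.0899 (exact permutation p = 0.7).

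**Figure D4:**
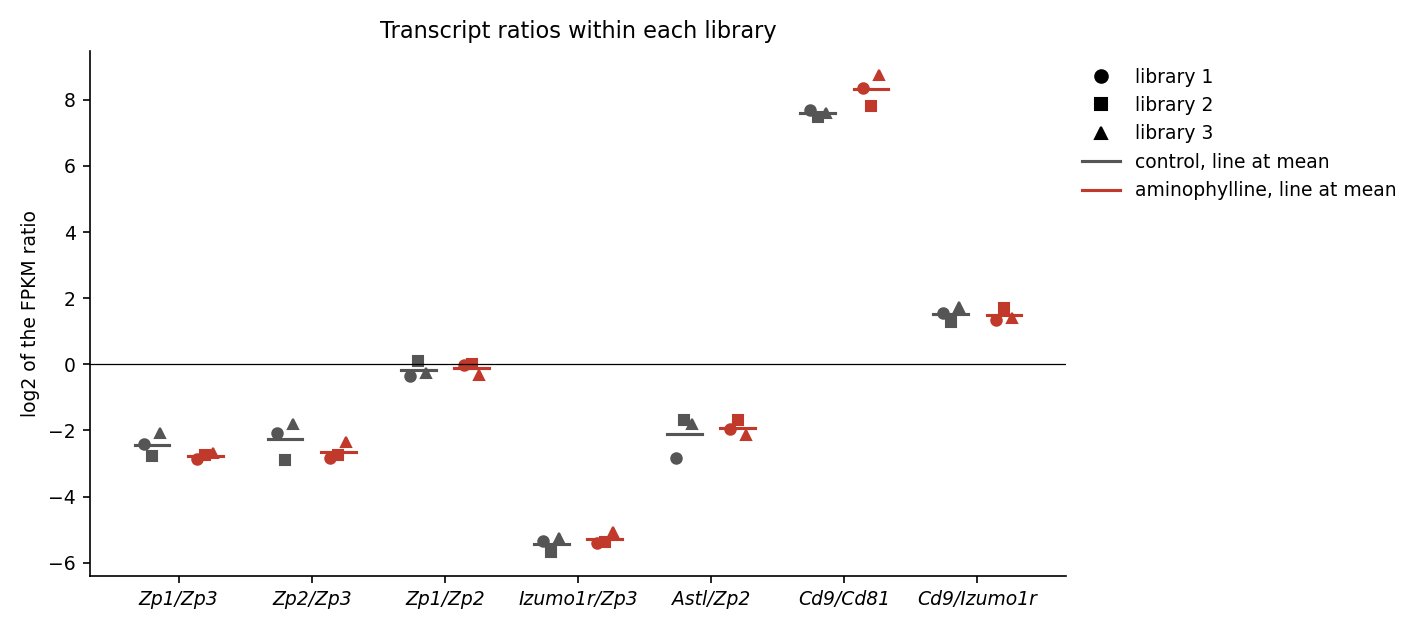
Log2 of the FPKM ratio between 2 genes in each control (grey) and aminophylline (red) library, with a line at the group mean. The groups are apart for Cd9/Cd81 and overlap for the other 6 ratios.

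The other genes of these pathways were taken from 7 lists with 138 genes, of which 128 were in the table and 65 passed the filter. By limma, 0 of the 65 passed the adjusted p. At an unadjusted p under 0.05, 1 was higher with aminophylline and 7 were lower, where 4.41% of all genes tested were higher and 2.84% lower. The count of 8 (12.3% of the 65, beside 7.25% of all genes) came to 5 (7.69%) without aminophylline library 2 or 3, beside 3.18% and 4.14%. With the replicate number as a block it was 12 (18.5% of the 65, beside 14.2% of all genes), of which 5 were higher and 7 lower. The lists were chosen with earlier results of these data known, so these shares are a description and no test of the lists.

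Among genes that process and glycosylate zona proteins, 5 of 18 were tested. Furin, a proprotein convertase of the type that cuts zona proteins free of their membrane anchor, was at 1.33 to 2.98 FPKM in control and 1.54 to 3.39 FPKM with aminophylline. C1galt1c1, the chaperone that the core O-glycan galactosyltransferase needs, was at 86.1, 57.9 and 77.0 FPKM in control. It was at 40.8, 44.6 and 43.1 FPKM with aminophylline, below every control library, as held for 4.96% of all genes tested. The log2 difference was -0.75 ± 0.182 (standard error; limma unadjusted p = 0.00167, adjusted p = 0.651).

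For cortical granules, 18 of 23 genes of their content and release were tested, and their median log2 difference was 0.12 against 0.10 for all genes. This median was 0.34 against 0.13 without control library 3, 0.23 against 0.12 without aminophylline library 1, and 0.07 against 0.07 without control library 1. Padi6, a protein of the oocyte's cytoplasmic lattices, was at 477 to 1086 FPKM in control and 667 to 771 FPKM with aminophylline. Fetub, the fetuin that inhibits ovastacin in blood plasma and follicular fluid, was at 41.4 to 52.2 and 43.3 to 52.3 FPKM. The 2 genes at an unadjusted p under 0.05 both encode proteins of membrane fusion. Snap23, a SNARE protein, was at 39.1, 17.4 and 31.5 FPKM in control and at 18.2, 17.9 and 17.8 FPKM with aminophylline, and these groups overlapped through control library 2. Vamp3, a vesicle SNARE, was at 37.5, 26.6 and 31.6 FPKM in control and at 19.1, 20.0 and 23.4 FPKM with aminophylline. Their log2 differences were -0.60 and -0.58 (limma adjusted p = 0.682 and 0.664). Snap23 was highest in control library 1, the library with the macrophage transcripts. So were Vamp3, C1galt1c1, Itga9, Tspan31 and Tbp among the lower related genes, while Zp3r was highest in control library 3. The part of the macrophage transcripts in this was not tested. Genes named as lower with aminophylline are apt to be highest in some control library. The share of all genes that were highest in control library 1 was not counted. Without control library 1 the Snap23 difference was -0.37 (limma unadjusted p = 0.187), while without control library 2 it was -0.93. Leaving out any library but control library 2 put its unadjusted p above 0.05.

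The list drawn up around CD9 and JUNO holds integrins, tetraspanins and others, and does not show that their products bind CD9 or JUNO. Of its 26 genes, 12 were tested. Rdx, which encodes radixin, a linker of membrane and actin, led them at 266 to 445 FPKM in control and 384 to 523 FPKM with aminophylline. Itga9, the integrin alpha 9 subunit, was at 44.0, 37.0 and 40.8 FPKM in control and at 27.1, 29.4 and 27.1 FPKM with aminophylline. Tspan31, another tetraspanin, was at 26.1, 22.5 and 24.1 FPKM in control and at 17.2, 15.4 and 16.6 FPKM with aminophylline. The log2 differences were -0.52 and -0.54 (limma adjusted p = 0.662 and 0.664), and in neither gene did the groups overlap. Among all genes tested, 4.96% likewise had every aminophylline library below the control libraries. Of 28 genes that build or attach the GPI anchor, which JUNO carries, 18 were tested and 0 reached an unadjusted p under 0.05 by limma, with a median log2 difference of -0.03.

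Of 10 genes listed as known or possible regulators of zona genes, Tbp among them, 7 were tested for a difference. Whether they act on zona genes in these oocytes was not tested. Figla was at 45.6, 78.4 and 51.8 FPKM in control and at 85.9, 79.7 and 77.6 FPKM with aminophylline. Control library 2 fell within the aminophylline range and the other two control libraries lay below it. The log2 difference was 0.50 ± 0.205 (standard error; limma unadjusted p = 0.0330, adjusted p = 0.682). It was 0.34 without control library 1 (limma unadjusted p = 0.13) and 0.42 with median centring (limma unadjusted p = 0.115), and it stayed under an unadjusted p of 0.05 without control library 2 alone among the libraries left out. Tbp, the TATA-binding protein, was at 134, 84.5 and 104 FPKM in control and at 62.4, 66.3 and 62.6 FPKM with aminophylline. Its groups did not overlap, as held in this direction for 4.96% of all genes tested. Its log2 difference was -0.72 ± 0.185 (limma unadjusted p = 0.00252, adjusted p = 0.651). Nobox and Lhx8, oocyte homeobox factors, differed by 0.03 and 0.01.

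Of 11 other genes of proteins with a ZP domain, the fold by which zona proteins polymerize, 3 were tested. Umodl1, a member of this family, was at 1436, 1612 and 940 FPKM in control and at 1443, 1142 and 922 FPKM with aminophylline. Umodl1 exceeded Zp2 in 5 of 6 libraries, and its log2 difference was -0.17 (limma adjusted p = 0.843). Of 22 genes known from the sperm side of gamete binding, 15 were in the table and 2 passed the filter. Izumo1, the sperm partner of JUNO, was at 0 to 0.692 FPKM. Zp3r, a protein of the sperm acrosome, was at 2.79, 2.47 and 3.08 FPKM in control and 1.53, 1.70 and 2.03 FPKM with aminophylline, with a log2 difference of -0.46 (limma adjusted p = 0.682). Leaving out any library but control library 2 put its unadjusted p above 0.05.

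Of the 11 oocyte markers, 2 reached an unadjusted p under 0.05 and both were higher with aminophylline, as were 4.41% of all genes tested. The count was 1 with median centring and without aminophylline library 1, beside 7.57% and 6.81% of all genes in either direction. Without control library 2 it was 4, beside 15.6%. Zar1, a maternal-effect gene that binds RNA, was at 238, 396 and 400.5 FPKM in control and at 585, 473 and 677 FPKM with aminophylline. Its log2 difference was 0.77 (limma adjusted p = 0.651, and 0.0495 with the replicate number as a block). Npm2, a histone chaperone of oocytes, was at 241, 304 and 300 FPKM in control and at 403, 378 and 386 FPKM with aminophylline, a log2 difference of 0.47 (limma adjusted p = 0.664). In both genes every aminophylline library was above every control library. Both were named for their unadjusted p, and 12.5% of all genes tested had groups that did not overlap in either direction.

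**Figure D5:**
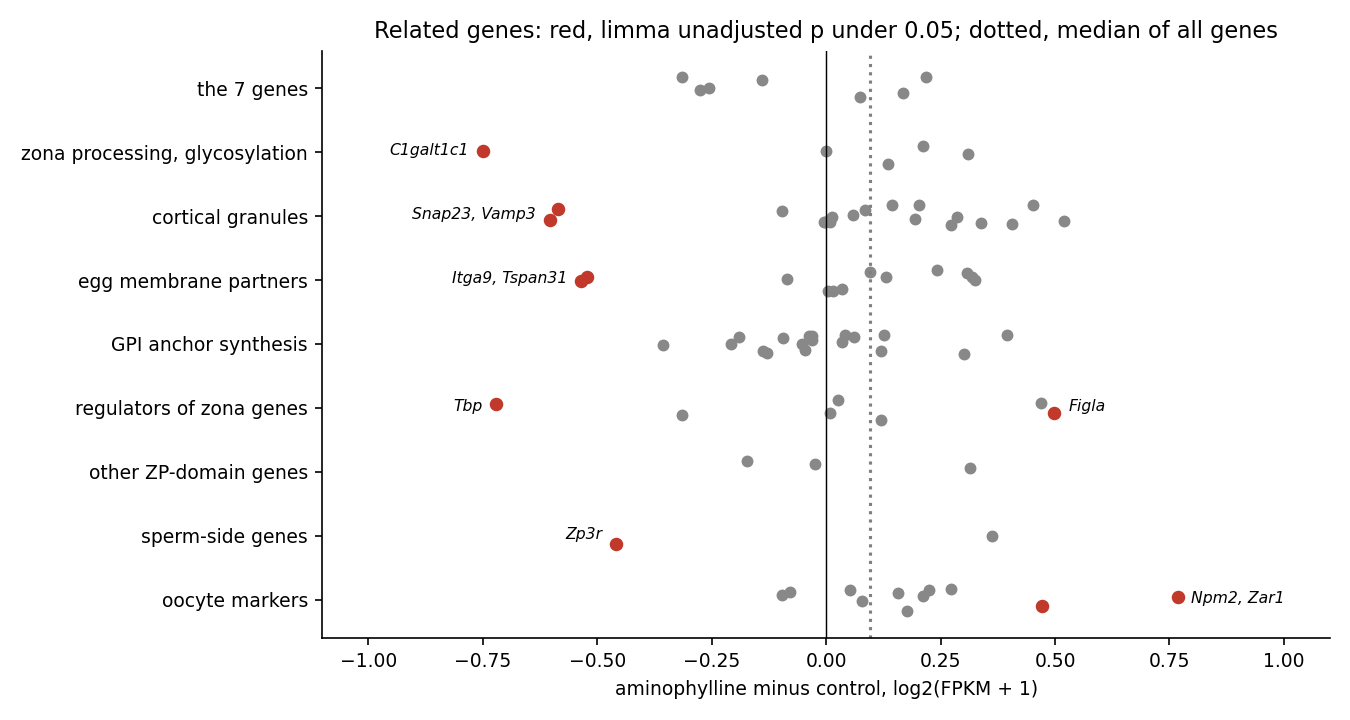
Log2 difference, aminophylline minus control, of each tested gene in the 7 lists of related genes, beside the 7 zona and gamete-binding genes and the oocyte markers. Red points have a limma unadjusted p under 0.05, and the dotted line is the median of all genes tested (0.10). The named lower genes lie between -0.75 and -0.46, and the named higher genes between 0.47 and 0.77.

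Over the 6 libraries, the genes whose pattern was most like that of a gene described here were sought among 4266 genes with a mean of at least 10 FPKM, by Pearson correlation of log2(FPKM + 1). The correlations share libraries and depth and are given as a description. As the highest of 4266 over only 6 libraries, values of this size can arise from the search alone. For Zp1 they were Ppil2 (r = 0.980), 2700054A10Rik and Ap1m1. For Zp2 they were E2f4 (r = 0.997), Ttc4 and Gorasp2, and for Zp3 Bscl2 (r = 0.994), Znhit3 and Tesc. For Izumo1r they were LOC118568331 (r = 0.993), Tarbp2 and H13, and for Astl Yrdc (r = 0.996), Slc26a6 and Rffl. For Cd9 they were Aaas (r = 0.994), Slc30a3 and Med20, and for Cd81 Dcakd (r = 0.943), Gm46363 and Ppif. Among the 7 genes themselves, Zp1 and Astl were most alike (r = 0.90), followed by Zp3 and Izumo1r (r = 0.81) and Zp1 and Cd81 (r = 0.80). Zp2 and Zp3 were not alike (r = -0.18).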

How the data were processed

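RNA-seq was made by the authors from oocytes (3 control and 3 aminophylline libraries) with a VAHTS Universal V6 kit. The deposited FPKM values were made by the authors from fragments per gene, transcript length and library size. The submitters' processing notes name GRCm38 and mm10; the aligner, counter and annotation are not given in the sources used here. Groups and replicate numbers came from the labels. The members and lists were chosen with earlier results of these data known.

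Whole reads were recovered from the FPKM of 22583 of 22583 genes above 0 in at least 2 libraries (100% of values whole within 0.01 read), with 99.6% of each total on listed genes. The floor was set at 3 reads; floors cover counting error only. Voom on these reads called 0 genes at an adjusted p under 0.05.

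limma 3.58.1 (R 4.3.3) fitted a trend of variance on mean, two-sided, to log2(FPKM + 1) for genes with FPKM of at least 1 in at least 3 libraries. Adjusted p-values are Benjamini-Hochberg over all 10340 genes tested. Ratios and shares were tested with exact two-sided permutation over libraries (scipy 1.17.1), adjusted over the 7 ratios. On simulated reads of this comparison, 195 of 195 genes changed 4-fold were recovered among 10312 tested, and 11 others were called. Smaller changes, such as the differences of the 7 genes, were not simulated, so this gives no power for them. The named genes were the 7 genes, list genes at an unadjusted p under 0.05 or otherwise the most abundant, and the 3 genes most correlated with each. Furin, Fetub, Padi6, Rdx, Nobox and Lhx8 were named outside this rule, and Izumo1 was named after its values were seen. The most abundant genes of the GPI anchor list were not named.

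Both groups carry numbers 1 to 3, but no source says that same-numbered libraries share mice or a batch. Deviations from the group means correlated over tested genes at 0.138, 0.14 and 0.552 for numbers 1, 2 and 3. These values do not settle whether the numbers pair. The main fit and the permutation tests were unpaired, and the replicate block was run as an alternative. Alternatives were another pseudocount (0.1), filter, scaling, variance model and library weights, the replicate block, and leaving out each library. Sequences came from RefSeq (GRCm38.p6) and GENCODE M21. Genes of the lists that were not in the table were not analysed here.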

Additional observations from a re-analysis of the deposited data

How the results depend on the processing

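At an adjusted p under 0.05, 0 of the 7 genes were called in any limma setting run. At an unadjusted p under 0.05 the count of 0 became 3 without control library 1 (Zp1, Zp2 and Astl), 1 without control library 2 (Zp2) and 1 with library weights (Cd9), beside 3.57%, 15.6% and 19.4% of all genes, a range of 0 to 3 over the libraries left out. Zp1 and Zp2 were lower, and Izumo1r and Cd9 higher, under every setting run, at log2 differences of -0.45 to -0.07, -0.42 to -0.15, 0.06 to 0.34 and 0.03 to 0.37. Cd81 was lower in each setting that kept it, at -0.55 to -0.02; a mean of at least 5 FPKM dropped it. Zp3 ranged from -0.12 to 0.32 and reversed to -0.0073 with median centring; with libraries left out it was -0.12 to 0.32. Astl reversed to 0.28 with library weights and ranged from -0.60 to 0.18 with libraries left out. The replicate block left the differences unchanged by construction, at -0.26 for Zp1, -0.32 for Zp2, 0.07 for Zp3, 0.22 for Izumo1r, 0.17 for Cd9, -0.28 for Cd81 and -0.14 for Astl, and changed no call of a named gene but that of Zar1. Related genes at an unadjusted p under 0.05 numbered 13 of 65 with library weights (beside 19.4% of all genes), against 8 (beside 7.25%). With libraries left out they numbered 5 to 10, beside 3.18% to 15.6% of all genes. The percent held by the 3 zona genes and by all 7 reversed without control library 2, to 0.0279 and 0.0250 percentage points, with lowest values of -0.1895 and -0.2086 without control library 1. With libraries left out, the log2 ratio of Zp2 to Zp3 differed by -0.71 to -0.17, of Zp1 to Zp3 by -0.51 to -0.15, of Izumo1r to Zp3 by 0.022 to 0.23 and of Cd9 to Cd81 by 0.49 to 0.97. The log2 ratio of Zp1 to Zp2 differed by -0.031 to 0.198 with libraries left out, reversed without control library 1 (-0.031) and without aminophylline library 2 (-0.00019). That of Astl to Zp2 differed by -0.19 to 0.387, reversed without control library 1, and that of Cd9 to Izumo1r by -0.171 to 0.055, reversed without control library 3 (0.055) and aminophylline library 1 (0.023). With GENCODE lengths, chosen after seeing the data, the median log2 ratio of Cd9 to Astl moved to 0.02 and that of Astl to Izumo1r to 0.23. The cause was not tested. Depth limits Cd81, with 30 to 81 reads per library.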
